A study of Mus musculus with 10 samples.

Results

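In all, 10 genes of the BMP and Nodal pathways were followed in murine embryonic stem cells (mESCs): the ligands Bmp4 and Nodal, the BMP target genes Id1, Id2 and Id3, the inhibitory SMADs Smad6 and Smad7, the Nodal antagonists Lefty1 and Lefty2, and the secreted BMP antagonist Smoc1. They were taken by symbol, and all 10 of 10 were found among the 20325 genes quantified. The data were 10 polyA RNA-Seq libraries of 5 lines with 2 replicates each. Daxx-/- mESCs (strain 129/SvEv) lack DAXX, a chaperone of histone H3.3, and Daxx-/- + Daxx WT cells are these cells with a wild-type Daxx transgene. H3.3 KO mESCs (129 x C57BL/6J) are knocked out for histone H3.3, and H3.3 KO + H3.3 WT cells carry a wild-type H3.3 transgene. H3.3 KO + H3.3 L126A-L130A cells carry a mutant H3.3, which the study designed to bind DAXX without stable deposition into nucleosomes. The mutant is named here as in the labels, and the study mostly writes it L126A-I130A. Every line was grown feeder-free in 2i + LIF medium, which holds inhibitors of GSK3 and MEK, so all values were measured with both kinases inhibited. The transgenes were delivered by lentivirus under an EF1 promoter and selected with puromycin, the rescued cells were collected 1 to 3 weeks after transduction, and neither unedited parental cells nor empty-vector cells were analysed here.

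BMP ligands bind type I and type II receptor kinases that phosphorylate SMAD1, SMAD5 and SMAD9, which join SMAD4 in the nucleus and switch on the Id genes, inhibitors of basic helix-loop-helix factors. Nodal uses activin receptors with the co-receptor encoded by Tdgf1, acts through SMAD2 and SMAD3 with FOXH1, and induces its own inhibitors Lefty1 and Lefty2. In naive mESCs, BMP signalling and the Id proteins are known to restrain differentiation together with LIF, and Nodal signalling is active through an autocrine loop.

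RefSeq promoters (GRCm38.p6) were on hand for 5 of the 10 genes, Id2, Id3, Bmp4, Smad6 and Nodal. The 250 bases before the start are shown for Bmp4 and Id3, which had the widest range of these 5 genes over the H3.3 libraries, and for Id2, which held a SMAD motif. Capitals mark the GC-rich SMAD motif GGCGCC. The Bmp4 window is chr14:46390670-46390919 on the minus strand, that of Id3 is chr4:136143572-136143821 on the plus strand and that of Id2 is chr12:25096093-25096342 on the minus strand.
Bmp4: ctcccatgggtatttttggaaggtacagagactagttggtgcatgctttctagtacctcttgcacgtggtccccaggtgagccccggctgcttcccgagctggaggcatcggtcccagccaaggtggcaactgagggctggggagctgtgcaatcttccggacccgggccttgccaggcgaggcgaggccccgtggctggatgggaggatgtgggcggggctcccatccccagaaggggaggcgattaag
Id3: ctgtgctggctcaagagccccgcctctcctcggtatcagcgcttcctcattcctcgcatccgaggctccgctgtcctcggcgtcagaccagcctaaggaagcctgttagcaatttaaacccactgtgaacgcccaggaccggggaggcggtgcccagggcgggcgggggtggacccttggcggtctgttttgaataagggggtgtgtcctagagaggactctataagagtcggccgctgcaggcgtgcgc
Id2: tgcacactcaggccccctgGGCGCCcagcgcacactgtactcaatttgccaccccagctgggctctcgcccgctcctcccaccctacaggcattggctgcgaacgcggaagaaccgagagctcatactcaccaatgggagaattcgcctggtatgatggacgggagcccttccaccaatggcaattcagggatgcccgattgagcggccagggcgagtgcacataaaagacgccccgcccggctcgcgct
GGCGCC reads alike on both strands and was found in the Id2 window alone among these 5 genes and in 11.9% of 32851 promoters, read from 250 bases before to 50 bases after the start. The SMAD box CAGACA or its complement TGTCTG was in none of the 5 and in 21% of all promoters. The FOXH1 motif AATCCACA or TGTGGATT was likewise in none of the 5 and in 0.855% of all. No binding was measured in this series, and a match of letters is a description of the window.

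The libraries held 15463625 to 21396585 expected counts, and levels are given as normalized CPM, counts scaled to library size. Of 8 mESC markers 7 were found under their symbols, and all 7 were at 1 CPM or more in every library, with a summed level of 3241 to 5370 CPM. The markers of primed epiblast summed to 287.9 CPM in 1 of the H3.3 KO + H3.3 L126A-L130A replicates, against 55.9 to 158.4 CPM in the other 9 libraries, mostly through Dnmt3b at 281.4 CPM. Trophoblast markers summed to 11.6 to 26.7 CPM and fibroblast markers to 4.28 to 40.4 CPM. Primitive endoderm markers summed to 22.5 CPM in Daxx-/- replicate 2, against 8.11 CPM in Daxx-/- replicate 1 and 5.72 to 13.6 CPM in the other lines. Daxx-/- replicate 2 also had the lowest Nodal, Smad7 and Lefty2, and the part of the primitive endoderm markers in those values was not tested. The fibroblast sum differed between the Daxx lines, at 27.6 and 40.4 CPM in Daxx-/- against 12.5 and 17.3 CPM in Daxx-/- + Daxx WT, with 4 of the 6 markers under 1 CPM in every library. Thy1 made up most of it, at 23.5 and 35.6 CPM in Daxx-/- and 11.7 and 16.1 CPM in Daxx-/- + Daxx WT, and Col1a1 was at 3.83 and 4.38 CPM against 0.50 and 0.96 CPM. The part of these markers in the DAXX rescue values was not tested. Daxx itself was at 71.9 and 82.7 CPM in the Daxx-/- libraries and at 207.0 and 206.1 CPM in Daxx-/- + Daxx WT, so transcript from the locus was still counted in the knockout. H3f3a was at 2.84 to 10.9 CPM in the 6 H3.3 libraries against 376.6 to 494.3 CPM in the 4 Daxx libraries, whereas H3f3b was at 508.2 and 719.1 CPM in H3.3 KO. H3f3b was lower in each rescued line. It was at 204.1 and 138.8 CPM with WT H3.3 and at 389.2 and 323.2 CPM with the mutant. With DAXX it was at 116.6 and 84.4 CPM, against 313.7 and 375.1 CPM in Daxx-/-. The falls with DAXX and WT H3.3 passed the test given below (edgeR adjusted p = 0.0258 and 0.0321), and that with the mutant did not. Neither H3.3 transgene showed as a rise of H3f3a or H3f3b. Which part of either locus was deleted was not checked against the reads.

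Of the 10 genes, 1 passed the test in 1 comparison with a knockout line. Smoc1 was lower in H3.3 KO + H3.3 L126A-L130A than in H3.3 KO by 1.91 on the log2 scale. Calls needed a change of 2-fold or more and an adjusted p (Benjamini-Hochberg) below 0.05 in edgeR's quasi-likelihood test over 13201 genes. By this rule 1.08% of all genes tested were called in Daxx-/- + Daxx WT against Daxx-/-, 0.205% in H3.3 KO + H3.3 WT against H3.3 KO, 0.795% in H3.3 KO + H3.3 L126A-L130A against H3.3 KO and 0.500% in H3.3 KO + H3.3 L126A-L130A against H3.3 KO + H3.3 WT. The 10 genes gave 0, 0, 1 and 0 calls in these comparisons, and at an unadjusted p under 0.05 they gave 2, 1, 2 and 2. Between the knockout lines, H3.3 KO against Daxx-/-, 0 of the 10 were called against 11.7% of all genes, with 2 at an unadjusted p under 0.05. The knocked-out gene and the strain cannot be told apart there.

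Smoc1 encodes a secreted, matricellular calcium-binding protein known as an antagonist of BMP signalling. It was at 34.1 and 25.9 CPM in Daxx-/- and at 10.8 and 15.7 CPM in Daxx-/- + Daxx WT. In H3.3 KO it was at 46.8 and 51.2 CPM, in H3.3 KO + H3.3 WT at 13.7 and 20.6 CPM and in H3.3 KO + H3.3 L126A-L130A at 13.5 and 12.5 CPM. Every rescued library was below both libraries of its knockout line. Without empty-vector cells, the transgene cannot be told apart from transduction and puromycin selection in these comparisons. The DAXX rescue gave a log2 fold change of -1.18 ± 0.26 (SE, edgeR adjusted p = 0.0612). The WT H3.3 rescue gave -1.51 ± 0.26 (edgeR adjusted p = 0.0714) and the mutant H3.3 rescue -1.91 ± 0.26 (edgeR adjusted p = 0.0193). The last alone passed the threshold, and it no longer passed when any 1 of its own 4 libraries was left out, though its log2 fold change stayed between -1.97 and -1.85, with edgeR adjusted p of 0.0759 and 0.172 without either H3.3 KO library and of 0.192 and 0.0551 without either mutant library. Whether the WT H3.3 rescue passed depended on the Daxx-/- libraries, which are in neither of its groups. Without either of them its log2 fold change was -1.51. These libraries enter through the shared spread, the normalization factors and the filter on low counts. Over 20 alternative settings Smoc1 was lower in every one, and it passed in 15 in the mutant rescue, 8 in the WT H3.3 rescue and 3 in the DAXX rescue. DESeq2 called it in the DAXX and WT H3.3 rescues (DESeq2 adjusted p = 0.00164 and 3.2e-05). The study listed Smoc1 from these same samples, by another method (EBSeq), as differentially expressed and lower in each of the 3 rescues. Its direction here is therefore not independent evidence. In bulk libraries, fewer cells with a transcript and less transcript per cell cannot be told apart.

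The size of the Smoc1 difference was not shown to depend on the transgene. Mutant against WT H3.3 gave a log2 fold change of -0.40 ± 0.26 (edgeR adjusted p = 0.629). The WT H3.3 rescue minus the DAXX rescue gave -0.34 ± 0.36 (edgeR adjusted p = 0.701), and the mutant rescue minus the DAXX rescue gave -0.74 ± 0.36 (edgeR adjusted p = 0.490). These differences were called at an adjusted p under 0.05 with no fold rule, and 0 of the 10 genes passed in either, against 0.0455% and 0.0227% of all genes. The rescues by WT and mutant H3.3 share the H3.3 KO libraries.

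**Figure D1:**
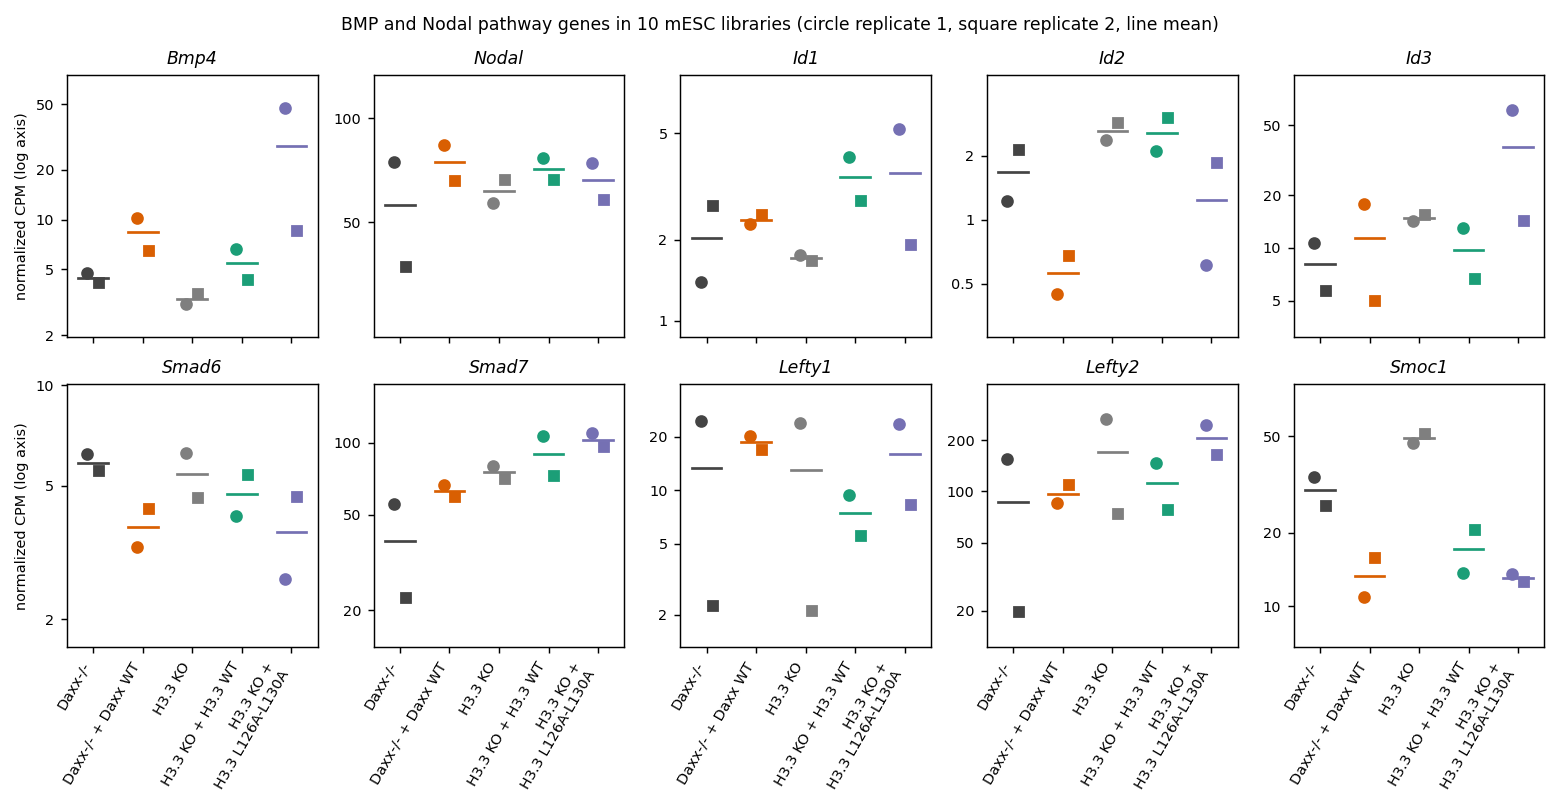
Normalized CPM (log axis, a scale of its own for each gene) of the 10 genes in the 5 lines, with circles for replicate 1, squares for replicate 2 and a line for the mean. Smoc1 is lower in each rescued line than in its knockout line, and Bmp4 reaches 47.3 CPM in 1 library.

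Bmp4, a BMP ligand, had the largest difference among the 10 genes and did not pass the test. It was at 4.77 and 4.16 CPM in Daxx-/- and at 10.3 and 6.46 CPM in Daxx-/- + Daxx WT. It was at 3.11 and 3.54 CPM in H3.3 KO, at 6.61 and 4.35 CPM in H3.3 KO + H3.3 WT, and at 47.3 and 8.58 CPM in H3.3 KO + H3.3 L126A-L130A. The rescued libraries were above those of their knockout line in each of the 3 rescues, but the mutant replicates differed 5.51-fold between themselves. The DAXX rescue gave a log2 fold change of 0.91 ± 0.65 (edgeR adjusted p = 0.436), the WT H3.3 rescue 0.72 ± 0.66 (edgeR adjusted p = 0.703) and the mutant H3.3 rescue 3.07 ± 0.68 (edgeR adjusted p = 0.0720). Without the mutant library at 47.3 CPM the last was 1.37, and without the other mutant library it was 3.83 and was called (edgeR adjusted p = 0.0149). Mutant against WT H3.3 gave 2.35 ± 0.66 (edgeR adjusted p = 0.170), which was 0.65 without the mutant library at 47.3 CPM and 3.11 without the other, when it was called (edgeR adjusted p = 0.0303). The library with the highest Bmp4 was also that with 281.4 CPM of Dnmt3b, the highest Id3 and Id1 and the lowest Smad6. Id2 was at 0.61 CPM there. The part of any of these in the Bmp4 value was not tested.

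Nodal, the ligand of the other branch, had the smallest range over the 10 libraries. It was at 74.9 and 37.2 CPM in Daxx-/-, 83.6 and 65.6 CPM in Daxx-/- + Daxx WT, 57.0 and 66.2 CPM in H3.3 KO, 76.6 and 66.4 CPM in H3.3 KO + H3.3 WT, and 74.1 and 58.0 CPM in H3.3 KO + H3.3 L126A-L130A. A single Daxx-/- library was below all others. The DAXX rescue gave a log2 fold change of 0.41 ± 0.29, the WT H3.3 rescue 0.21 ± 0.29 and the mutant rescue 0.10 ± 0.30, at edgeR adjusted p from 0.439 to 0.900. Without Daxx-/- replicate 1, which leaves the low library alone, the DAXX rescue gave 1.00 for Nodal and 1.48 for Smad7. More genes of the whole set also passed the test in that setting. Without Daxx-/- replicate 2 the same rescue gave -0.014 for Nodal and 0.17 for Smad7.

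None of the 3 Id genes was called in the fit of all 10 libraries. In the order Id1, Id2 and Id3, log2 fold changes were 0.22, -1.58 and 0.48 in the DAXX rescue. They were 0.99, -0.03 and -0.61 in the WT H3.3 rescue and 1.03, -1.06 and 1.33 in the mutant rescue. The SE of these values lay between 0.53 and 0.73. Id3 was at 10.6 and 5.64 CPM in Daxx-/-, 17.7 and 4.94 CPM in Daxx-/- + Daxx WT, 14.3 and 15.4 CPM in H3.3 KO, 12.9 and 6.61 CPM in H3.3 KO + H3.3 WT, and 60.8 and 14.2 CPM in H3.3 KO + H3.3 L126A-L130A. Its 2 libraries in H3.3 KO + H3.3 L126A-L130A differed 4.28-fold and overlapped those of H3.3 KO. Mutant against WT H3.3 gave 1.94 ± 0.74 (edgeR adjusted p = 0.329), with both mutant libraries above both WT libraries. It was 0.54 without the mutant library at 60.8 CPM and 2.64 without the other. Id1 was at 1.39 and 2.68 CPM in Daxx-/-, 2.29 and 2.47 CPM in Daxx-/- + Daxx WT, 1.75 and 1.67 CPM in H3.3 KO, 4.07 and 2.78 CPM in H3.3 KO + H3.3 WT, and 5.16 and 1.91 CPM in H3.3 KO + H3.3 L126A-L130A. All libraries with an H3.3 transgene were above H3.3 KO for Id1, with log2 fold changes of 0.99 ± 0.54 for WT and 1.03 ± 0.54 for the mutant (edgeR adjusted p = 0.484 and 0.378). Without the mutant library at 5.16 CPM the value for the mutant was 0.16, and Id1 was counted 25 to 76 times a library. Id2 was at 1.22 and 2.13 CPM in Daxx-/-, 0.45 and 0.67 CPM in Daxx-/- + Daxx WT, 2.38 and 2.85 CPM in H3.3 KO, 2.10 and 3.01 CPM in H3.3 KO + H3.3 WT, and 0.61 and 1.86 CPM in H3.3 KO + H3.3 L126A-L130A. Id2 was lower with DAXX by a log2 fold change of -1.58 ± 0.61 (edgeR adjusted p = 0.184) and was counted 9 to 52 times a library.

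No comparison of the inhibitory SMADs was called in the fit of all 10 libraries. Smad7, a feedback inhibitor of both branches, was at 55.6 and 22.5 CPM in Daxx-/- and at 66.6 and 59.1 CPM in Daxx-/- + Daxx WT. It was at 80.0 and 70.4 CPM in H3.3 KO, 106.1 and 72.7 CPM in H3.3 KO + H3.3 WT and 109.2 and 95.7 CPM in H3.3 KO + H3.3 L126A-L130A. All H3.3 libraries were above all Daxx libraries. The share of all genes that part in this way was not computed, and the knocked-out gene and the strain cannot be told apart. H3.3 KO against Daxx-/- gave a log2 fold change of 0.95 ± 0.36 (edgeR adjusted p = 0.0848), and without Daxx-/- replicate 1 it was called at 1.74 (edgeR adjusted p = 0.00291), while without Daxx-/- replicate 2 it was 0.43. Smad6, which mainly inhibits the BMP branch, was at 6.22 and 5.53 CPM in Daxx-/-, 3.28 and 4.27 CPM in Daxx-/- + Daxx WT, 6.28 and 4.59 CPM in H3.3 KO, 4.07 and 5.39 CPM in H3.3 KO + H3.3 WT, and 2.65 and 4.64 CPM in H3.3 KO + H3.3 L126A-L130A. Its log2 fold changes in the 3 rescues were -0.64, -0.20 and -0.57, each with an SE of 0.37, and edgeR adjusted p from 0.339 to 0.869.

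Lefty1 and Lefty2, paralogous antagonists that bind Nodal and its co-receptor, had the widest spread between replicates. Lefty1 was at 24.5 and 2.24 CPM in Daxx-/-, 20.2 and 16.9 CPM in Daxx-/- + Daxx WT, 23.7 and 2.11 CPM in H3.3 KO, 9.41 and 5.50 CPM in H3.3 KO + H3.3 WT, and 23.4 and 8.31 CPM in H3.3 KO + H3.3 L126A-L130A. Lefty2 was at 154.4 and 19.5 CPM in Daxx-/-, 85.2 and 109.3 CPM in Daxx-/- + Daxx WT, 265.8 and 73.6 CPM in H3.3 KO, 147.9 and 77.8 CPM in H3.3 KO + H3.3 WT, and 246.4 and 162.7 CPM in H3.3 KO + H3.3 L126A-L130A. The replicates of Daxx-/- and of H3.3 KO differed more than 10-fold for Lefty1. None of their comparisons was called, with SE from 0.82 to 1.13 on the log2 scale. The GRCm38 transcripts share 281 stretches of 50 bases, 17.9% of those in Lefty1 and 11.6% of those in Lefty2, so reads could be split between them. Summed, they gave log2 fold changes of 0.21 in the DAXX rescue, -0.60 in the WT H3.3 rescue and 0.27 in the mutant rescue (edgeR adjusted p from 0.817 to 0.904).

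**Figure D2:**
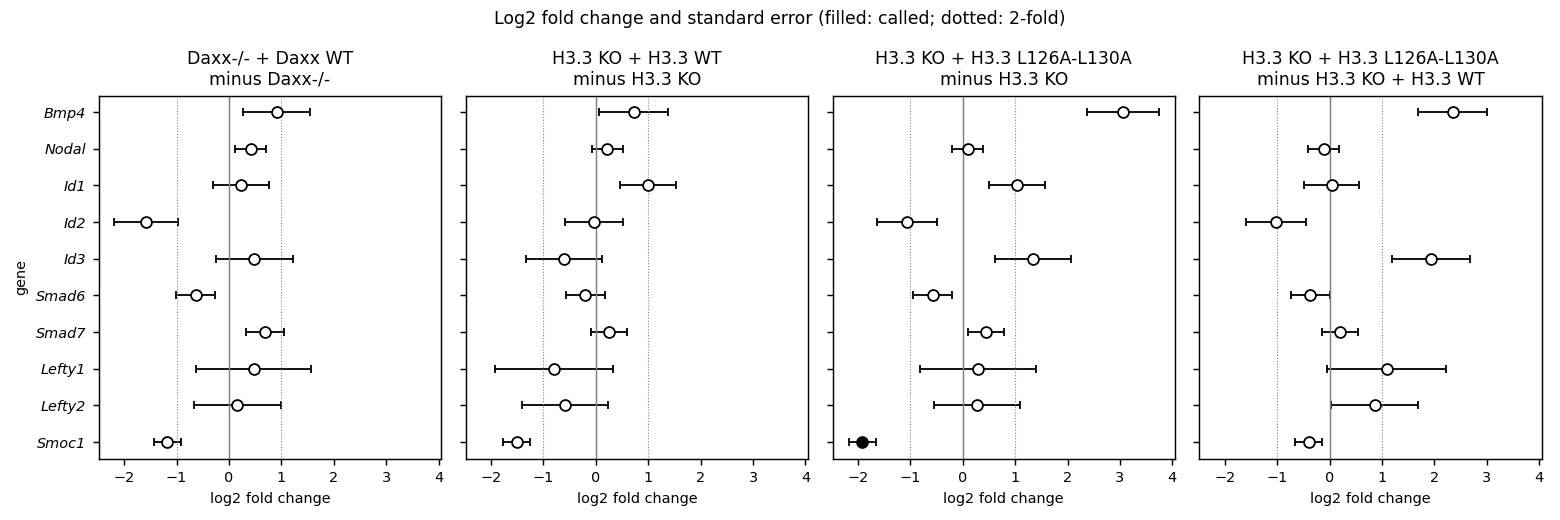
Log2 fold change (point) with its standard error (bar) of the 10 genes in the 3 rescues and in mutant against WT H3.3. The filled point is the only call, Smoc1 at -1.91 in H3.3 KO + H3.3 L126A-L130A minus H3.3 KO, and dotted lines mark 2-fold.

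The spread between replicates was wide for these genes. At least a 2-fold difference between the 2 replicates was seen for 4 of the 10 genes in Daxx-/-, 1 in Daxx-/- + Daxx WT, 2 in H3.3 KO, 0 in H3.3 KO + H3.3 WT and 5 in H3.3 KO + H3.3 L126A-L130A. The same was true of 16.0%, 7.09%, 5.92%, 3.58% and 11.5% of all genes tested. Lefty1 and Smad7 were higher in replicate 1 in 5 of 5 lines, and Id2 was lower in replicate 1 in 5 of 5 lines. The share of all genes with such agreement was not computed. Over all tested genes, the differences between same-numbered replicates correlated above 0.1 in 7 of 10 pairs of lines. Replicate numbers are not stated to mark a shared batch or day.

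**Figure D3:**
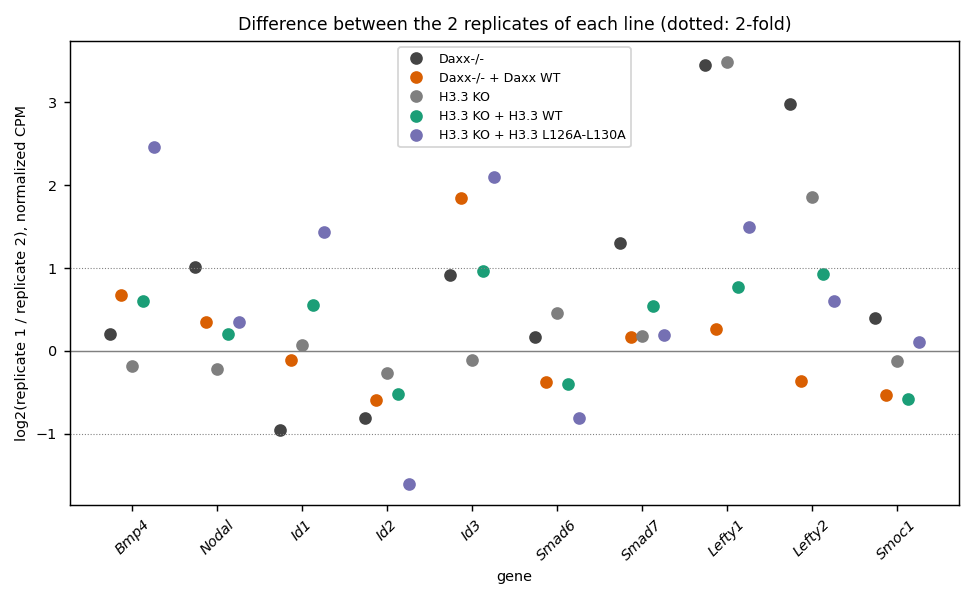
Log2 ratio of replicate 1 to replicate 2 (normalized CPM) for the 10 genes, 1 point for each of the 5 lines, with dotted lines at 2-fold. Lefty1 lies above 3 in Daxx-/- and H3.3 KO, and Smoc1 stays within 1 in all lines.

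Libraries that do not overlap between groups were about as frequent here as among all genes. Of the 10 genes, 2 were higher and 3 lower in both rescued libraries with DAXX, where 46.2% of all genes did not overlap. With WT H3.3 3 were higher and 2 lower, against 56.0%. With mutant H3.3 3 were higher and 2 lower, against 50.0%, and in mutant against WT H3.3 3 were higher and 2 lower, against 45.2%. The median log2 fold change of the 10 genes was 0.32 in the DAXX rescue, -0.12 in the WT H3.3 rescue and 0.28 in the mutant rescue, beside -0.01, 0.02 and 0.04 over all genes.

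The rest of the pathway was read from a list of 81 genes by role, of which 53 passed the filter on low counts. With DAXX, 0 of these 53 rose and 1 fell, where 1.08% of all genes were called: Dusp9, a MAP kinase phosphatase induced by BMP in mESCs. Dusp9 was at 125.7 and 88.8 CPM in Daxx-/- and at 39.8 and 47.9 CPM in Daxx-/- + Daxx WT, with a log2 fold change of -1.29 ± 0.22 (edgeR adjusted p = 0.0331). The Dusp9 call was lost without either library of Daxx-/- + Daxx WT, of H3.3 KO or of H3.3 KO + H3.3 WT. Without Daxx-/- replicate 1 more pathway genes were called, and calls over all genes rose as well. Whether the rise in the pathway differed from that over all genes was not tested. In the WT H3.3 rescue, the mutant H3.3 rescue and mutant against WT H3.3, 0 of the 53 were called by edgeR, with 6, 7 and 4 at an unadjusted p under 0.05. In the mutant rescue Smurf2, a ubiquitin ligase that acts on SMADs and receptors, had an edgeR adjusted p of 0.0370 at a log2 fold change of -0.74, under the 2-fold rule. It was named after its value was seen.

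Between the knockout lines 6 of the 53 were called, all lower in H3.3 KO than in Daxx-/-, a share close to the 11.7% of all genes called there. They were the receptors Acvr2b (log2 fold change -1.33), Acvrl1 (-2.11) and Bmpr2 (-1.49), the Nodal co-ligand Gdf1 (-1.74), the signal carrier Smad3 (-1.40) and Hey1 (-3.04), a repressor induced by BMP and Notch. Their edgeR adjusted p lay between 0.00462 and 0.0352. Bmpr2 was at 18.3 and 15.8 CPM in Daxx-/- and at 7.13 and 5.02 CPM in H3.3 KO. The genes with the largest fold changes were low in H3.3 KO, and their Daxx-/- replicates lay apart. Hey1 was at 5.05 and 10.8 CPM in Daxx-/- against 0.74 and 1.18 CPM in H3.3 KO. Acvrl1 was at 2.33 and 5.31 CPM against 1.07 and 0.68 CPM, and Gdf1 at 3.11 and 7.12 CPM against 1.87 and 1.18 CPM. Leaving out 1 library at a time raised or lowered this count, and the count over all genes between these lines changed as well.

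Levels between genes were compared per length of the longest coding transcript. Lefty2 averaged 54.3 CPM per kb, Nodal 31.5, Smad7 17.2, Id3 12.8, Lefty1 8.42, Smoc1 7.01, Bmp4 4.80, Id1 2.26, Smad6 1.58 and Id2 0.878 CPM per kb. The ranges over libraries of neighbours in this order overlapped. On the same scale the co-receptor gene Tdgf1 averaged 555 CPM per kb and was the highest of the pathway. The other roles are shown by the gene with the most CPM before division by length, which is not always the highest per kb (Eng averaged 13.5 CPM per kb among receptors and Foxh1 26.1 among signal carriers). They were Bmp7 among BMP ligands, Bmpr1a among receptors, Smad4 among signal carriers, Twsg1 among secreted inhibitors, Tgif1 among intracellular inhibitors, Dusp9 among BMP targets and Eomes among Nodal targets, with 4.85, 10.5, 23.4, 14.8, 75.3, 30.1 and 3.79 CPM per kb.

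**Figure D4:**
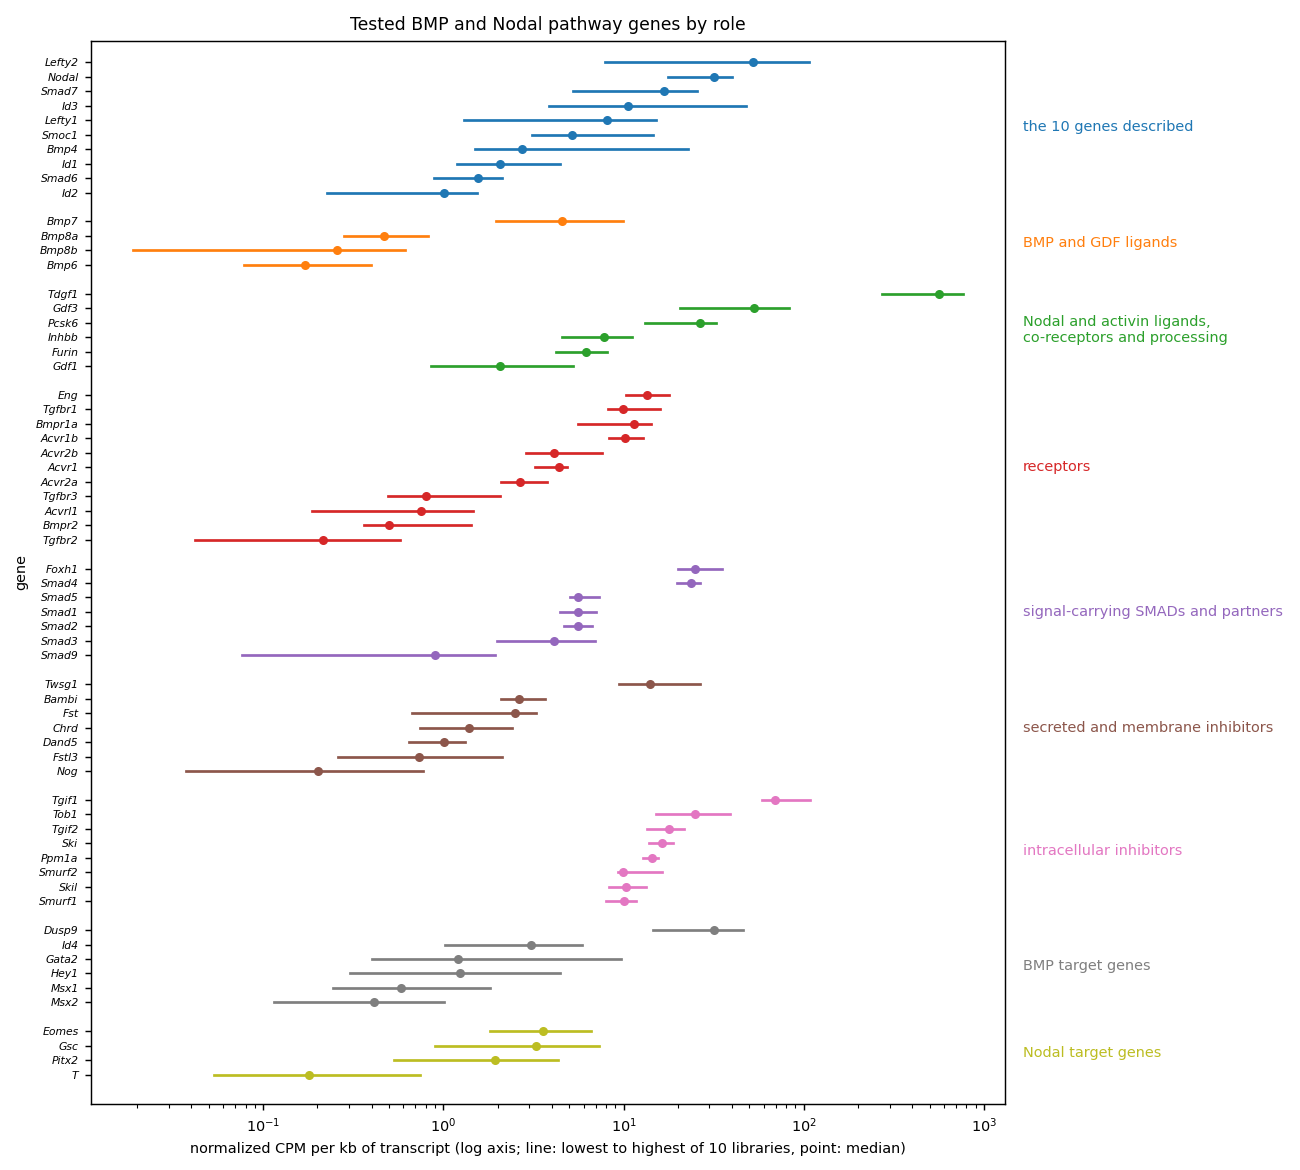
Normalized CPM per kb of transcript (log axis) of the tested pathway genes by role, with the median as a point and the lowest to highest of 10 libraries as a line. Tdgf1 averages 555 CPM per kb, and among the 10 genes described Lefty2 is highest and Id2 lowest.

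The genes most like Smoc1 over the 10 libraries, by Pearson's r of log2(CPM + 1), were Plcl2 (r = 0.966), Serpina3k (r = 0.966) and Serpina3c (r = 0.960). Those most like Lefty1 were Pds5a (r = 0.949), Zfp644 (r = 0.922) and Zbtb8os (r = 0.908), and those most like Id1 were 1700029G01Rik (r = 0.875), Dffa (r = 0.853) and Creb3l4 (r = 0.842). They were picked as the highest of all tested genes, the 10 libraries are pairs from 5 lines, and the values are a description.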

How the data were processed

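PolyA RNA-Seq libraries of 5 mESC lines with 2 replicates each were grouped by the line named in the labels. The authors aligned reads with Bowtie to mm9 (per the labels) and quantified genes with RSEM; versions and annotation are not given in the sources used here. The deposited values are expected counts, as they are unscaled and at least 61.4% of the values of a library are exactly whole with zeros counted (50.1% of those above 0), although they are named TPM. They were rounded and fitted with edgeR 4.0.16 in R 4.3.3: median-of-ratios factors, a filter of 1 CPM or more in 2 or more libraries, 1 quasi-likelihood fit of 10 libraries, and Benjamini-Hochberg adjustment over 13201 genes. The SE is the log2 fold change divided by the root of F. The fit was tested on simulated data. Alternatives used DESeq2 1.42.0, limma 3.58.1, other factors and filters, a replicate block and leaving out each library. Library totals were 15463625 to 21396585. Replicates differed beyond counting noise in every line (chi-square per gene 10.4 to 68.7), no library repeats another, and p-values measure only the spread between these samples. Genes were named as the 10 described, pathway genes called in a comparison or most abundant in their role, the 3 genes most like Id1, Lefty1 and Smoc1, and the targeted genes. The genes and lists were chosen with earlier results of these data known. Promoters are from RefSeq and transcript lengths from GENCODE, both on GRCm38, a build other than that of the reads, and were joined by symbol. Kit and counting are not stated to keep strand.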

Additional observations from a re-analysis of the deposited data

How the results depend on the processing

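Under the alternatives, 990 log2 fold changes of the 10 genes were recomputed: 44 had another sign, 5 lost a call and 23 gained one. Smoc1 kept its sign in every rescue. The cause of the changes was not tested, and genes under the 5 CPM filter (Id1, Id2 and Smad6) gave no value there. By library size alone, Id1 in mutant against WT H3.3 was -0.0059 and Lefty1 between knockout lines was 0.080. With limma, Id1 in mutant against WT H3.3 was -0.048 on log2(CPM + 1) and -0.091 on log2(CPM + 0.1), and Lefty1 with WT H3.3 was 0.010 on log2(CPM + 0.1).

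Without Daxx-/- replicate 2 and H3.3 KO + H3.3 L126A-L130A replicate 1 together, which stand apart in these genes and were chosen after seeing the data, 10 fold changes had another sign: with DAXX Lefty1 -0.40, Lefty2 -0.67 and Nodal -0.0071. With mutant H3.3 they were Id3 -0.061, Lefty1 -0.64, Lefty2 -0.059 and Nodal -0.084. Id1 was -0.83 in mutant against WT H3.3, and between knockout lines Id1 was 0.30 and Nodal -0.29. There the Smoc1 call in the mutant rescue was lost (adjusted p = 0.0627) at a log2 fold change of -1.97, so 0 of the 10 genes were called in it and 1 with WT H3.3, and 2 other pathway genes were called with DAXX.

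Leaving out 1 library at a time gave these ranges where a sign changed. With DAXX they were -0.17 to 0.77 for Id1, -0.71 to 1.12 for Id3, -0.41 to 3.05 for Lefty1, -0.67 to 2.32 for Lefty2 and -0.014 to 1.00 for Nodal. With WT H3.3 they were -0.31 to 0.20 for Id2, -1.67 to 1.82 for Lefty1, -1.24 to 0.62 for Lefty2, -0.41 to 0.044 for Smad6 and -0.049 to 0.50 for Smad7. With mutant H3.3 they were -0.059 to 2.04 for Id3, -0.63 to 2.91 for Lefty1, -0.38 to 1.48 for Lefty2 and -0.082 to 0.27 for Nodal. In mutant against WT H3.3 they were -0.84 to 0.59 for Id1, -0.30 to 0.051 for Nodal and -0.051 to 0.50 for Smad7. Between knockout lines they were -0.64 to 0.30 for Id1, -2.66 to 2.53 for Lefty1, -0.24 to 3.12 for Lefty2, -0.28 to 0.73 for Nodal and -0.35 to 0.10 for Smad6. Calls among the 10 genes ranged from 0 to 2 with DAXX, 0 to 1 with WT H3.3, 0 to 1 with mutant H3.3, 0 to 1 in mutant against WT H3.3 and 0 to 2 between knockout lines, and those among other pathway genes from 0 to 7, from 0 to 1 with mutant H3.3, and from 2 to 11 between knockout lines.

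The count among the 10 genes became 1 with DAXX and 1 with WT H3.3 with no filter, with DESeq2, under the replicate block and at an adjusted p under 0.1, each time Smoc1, and 1 with WT H3.3 with limma on log2(CPM + 1) and with each comparison fitted alone. It became 2 with mutant H3.3 with no filter, DESeq2, the replicate block and an adjusted p under 0.1, as Bmp4 was called (adjusted p = 0.0370, 1.26e-04 and 0.0278 in the first 3 of these). DESeq2 called 1 (Bmp4) in mutant against WT H3.3, and 1 (Smad7) was called between knockout lines by library size alone and under the block. Other pathway genes called with DAXX numbered 3 with DESeq2, 2 under the replicate block, 2 at an adjusted p under 0.1 and 0 with each comparison alone. With mutant H3.3 they numbered 2 with DESeq2, 1 under the block and 1 without the fold rule. DESeq2 called 1 in mutant against WT H3.3 and 1 in each difference of rescues. Between knockout lines they numbered 3 with the 5 CPM filter and 12 without the fold rule. Under the replicate block Smoc1 was called with DAXX (-1.20, adjusted p = 0.0232) and with WT H3.3 (-1.52, adjusted p = 0.0312). Same-numbered replicates deviated together in most pairs of lines but not in all, and the labels do not say what a number marks, so the fit without the block was kept. Their deviations correlated from -0.0436 to 0.575 over 10 pairs of lines, 7 of them over 0.1.

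Counts over all genes ranged over these settings from 1 to 1106 with DAXX (main 142), 1 to 355 with WT H3.3 (27), 2 to 458 with mutant H3.3 (105), 0 to 323 in mutant against WT H3.3 (66, and 0 without H3.3 KO + H3.3 L126A-L130A replicate 1) and 701 to 3084 between knockout lines (1538).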
